A study of Mus musculus with 2 samples.

Results

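Interferon-stimulated genes, the genes that cells switch on when interferon binds its receptor, were followed in whole adrenal gland. The set held 35 genes taken from a fixed list of symbols, and all 35 were found among the 55536 genes of the deposited gene tables. Total RNA was sequenced from the adrenal glands of 2 female B6CASTF1/J mice, the F1 cross of C57BL/6J and CAST/EiJ, aged 18 to 20 months, with 1 library per animal made from 300 ng of RNA. The labels name no engineered allele and no treatment, and there was 1 group only, so no comparison of conditions could be made. The animals are called animal 1 and animal 2 after their replicate numbers. The labels name a separate female and tissue sample for each, but give both the same donor identifier, and 1 label field of animal 2 repeats the name of animal 1. Differences between the animals also hold any difference between the library preparations.

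Type I interferons (the alpha, beta and related forms) bind a receptor of Ifnar1 and Ifnar2, and the kinases Jak1 and Tyk2 then act on Stat2, among others. Stat2 works with Irf9 in the factor ISGF3, which binds the interferon-stimulated response element (ISRE) in the promoters of target genes. Type II interferon, interferon gamma, acts through Ifngr1 and Ifngr2 and the gamma-activated site (GAS). The products of the target genes sense foreign RNA, cut or sequester it, block viral entry and release, or strengthen the pathway itself, and many are also expressed at a low level without infection.

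The promoter sequences below show the elements through which these genes are known to be addressed. Promoter windows of 300 bases, from 250 bases before to 50 bases after the start of transcription, were taken from RefSeq on GRCm38.p6 and were at hand for 27 of the 35 genes. An ISRE was searched as GAAA and GAAA separated by 2 bases of any kind, and a GAS as TTCNNNGAA, each on both strands and with overlapping matches counted. The ISRE letters were found in 16 of the 27 genes (59.3%), against 3.99% of all 27025 genes with a window, and the GAS letters in 8 of 27 (29.6%), against 9.55%. Bst2, Oas1a, Ifitm3 and Igtp held both. A match describes the letters and does not show that a factor binds there. Isg15 and Ifit3 are shown first as examples of the genes with more than 1 ISRE copy, overlapping in Isg15 and apart in Ifit3. The stretches are the 160 bases before the start, 5′ to 3′ in the direction of the gene, with the ISRE matches in capitals, at chr4:156200819-156200978 (GRCm38, minus strand) for Isg15 and chr19:34583369-34583528 (plus strand) for Ifit3.
Isg15: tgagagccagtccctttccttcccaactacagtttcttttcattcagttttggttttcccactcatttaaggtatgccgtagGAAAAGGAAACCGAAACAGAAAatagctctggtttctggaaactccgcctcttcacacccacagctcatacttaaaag
Ifit3: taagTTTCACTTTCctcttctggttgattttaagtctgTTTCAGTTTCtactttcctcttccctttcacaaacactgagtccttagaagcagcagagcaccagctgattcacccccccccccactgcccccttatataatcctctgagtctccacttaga
Isg15 held 3 overlapping matches between 78 and 57 bases before its start, and Ifit3 held 2 matches that begin 156 and 122 bases before its start. In Ifit3 the letters read on the opposite strand, so they appear as TTTC.

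The single sites of 5 further genes are shown for their differing place and strand, again with the ISRE in capitals. They lie at chr7:140955988-140956017 (minus strand) for Ifitm2, chr10:128270266-128270295 (plus strand) for Stat2, chr4:40239804-40239833 (minus strand) for Ddx58, chr12:26456553-26456582 (minus strand) for Rsad2 and chr3:142620594-142620623 (plus strand) for Gbp2.
Ifitm2: ccaccaacagGAAAAGGAAAttgctagaga
Stat2: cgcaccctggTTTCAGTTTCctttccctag
Ddx58: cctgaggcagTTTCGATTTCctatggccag
Rsad2: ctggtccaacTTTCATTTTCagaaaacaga
Gbp2: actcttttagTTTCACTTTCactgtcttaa
The match of Stat2 begins 222 bases before the start and that of Rsad2 120, whereas that of Ddx58 lies just after the start, at bases 3 to 12 of the transcript. Igtp, a GTPase that interferon gamma is known to induce strongly, held a GAS 45 bases and an ISRE 34 bases before its start, and Irf1, a textbook target of interferon gamma, held a GAS 90 bases before its start. The GAS of Igtp, in capitals, is at chr11:58199501-58199529 (plus strand), and that of Irf1 is at chr11:53769914-53769942 (plus strand).
Igtp: aactagccatTTCTAGGAActgaaactga
Irf1: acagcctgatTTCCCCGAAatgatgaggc
Among the 27 genes with a window, median levels in these glands were similar with and without the ISRE letters, but the ranges differed. Levels ran from 0.12 to 127.6 TPM with the letters and from 0.305 to 11 TPM without them. The 8 genes without a window, Ifi27 and Dhx58 among them, are left out here. For 25 of the 33 windows, the first 30 bases after the start occur in an annotated transcript of the gene. A gene without the letters may thus have another start that was not searched. The 16 genes with the letters had a median level of 3.27 TPM and the 11 without them 2.93 TPM, and 12 of the 16 and 9 of the 11 reached 1 TPM in both animals.

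Levels are given in TPM, transcripts scaled for length to a fixed total over all entries of the table. Of the 35 genes, 25 reached 1 TPM in both animals (71.4%), against 22.6% of all genes of the table. Among protein-coding genes the shares were 24 of 34 and 52.4%. The list was chosen with earlier results of these data known, and the part of that choice in these shares was not tested. Levels of the set were mostly low: its detected genes had a median of 4.61 TPM, against 9.51 TPM for all 12552 detected genes. Both animals had 2 genes above 100 TPM, Ifi27 and Ifitm2, which made up 77.3% of the summed level of the set in animal 1 and 75.6% in animal 2. The 35 genes summed to 708.6 TPM in animal 1 and 610.7 in animal 2 (mean 659.6 ± 69.2, SD, n = 2). Without Ifi27 and Ifitm2 the sums were 160.9 and 149.1 TPM (155 ± 8.33). In bulk tissue, fewer cells of a type and less RNA per cell cannot be told apart.

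**Figure D1:**
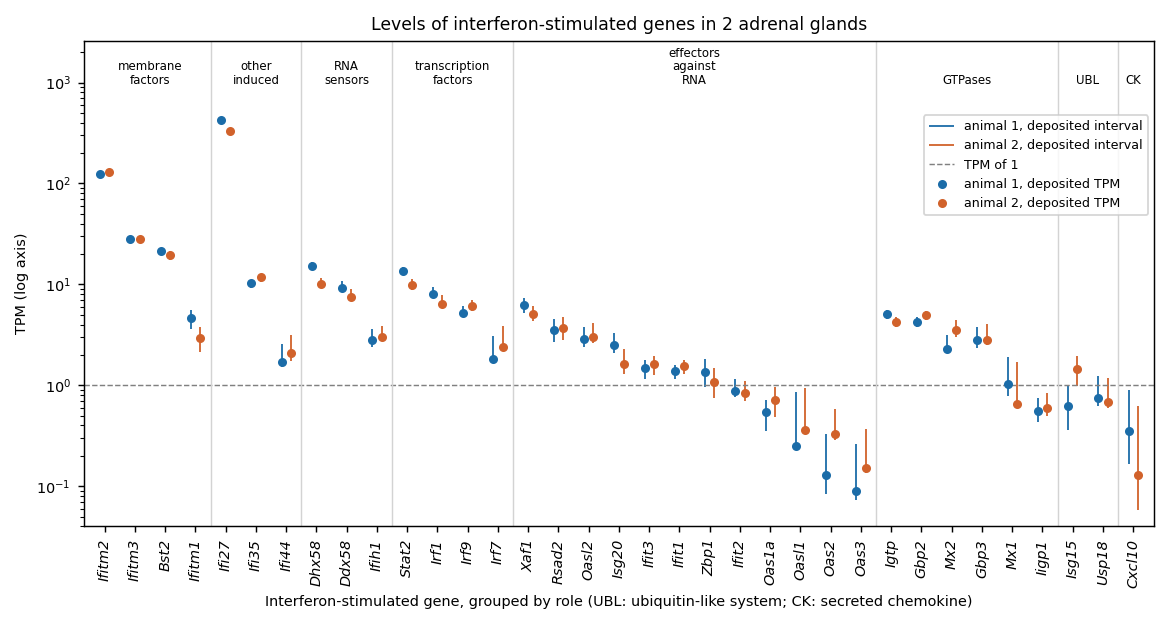
Deposited TPM (log axis) of the 35 interferon-stimulated genes in animal 1 (blue) and animal 2 (orange), grouped by role, with the deposited TPM interval of each library as a vertical line; the dashed line marks 1 TPM. Ifi27 and Ifitm2 stand above 100 TPM in both animals, and Oas2, Oas3 and Cxcl10 lie below 1 TPM in both.

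The membrane restriction factors were among the most abundant members. Ifitm2, which blocks the fusion of viruses with the endosome, had 124.51 TPM in animal 1 and 130.60 in animal 2, the second highest level of the set. Ifitm3, its close relative, had 28.17 and 28.42 TPM, so the animals were nearly equal in both genes. Within a library, Ifitm3 lay 2.17 ± 0.04 below Ifitm2 on the log2 scale of TPM (SD, n = 2). A second quantification deposited by the authors gave a smaller gap, with a mean log2 ratio of -1.90. Bst2, or tetherin, which holds budding virus particles on the cell surface, had 21.35 and 19.48 TPM. Ifitm1, which acts at the plasma membrane, was far lower, with 4.59 and 2.95 TPM. The 3 Ifitm genes lie within 55.9 kb on chromosome 7 (GRCm38, 140954837 to 141010770). Of the 31-base stretches of Ifitm2 transcripts, 55.5% also occur in another gene's transcripts, mainly the predicted gene Gm45717, and for Ifitm3 the share was 20.5%, so their levels depend on how the authors' programs divided such reads.

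Ifi27, a small hydrophobic protein of mitochondrial and nuclear membranes, had the highest level of the set, 423.22 TPM in animal 1 and 331.00 in animal 2, on 9741 and 6746 expected counts. It shares no 31-base stretch with another gene. Its neighbour Ifi27l2a, a related interferon-induced gene outside the set, had 136.83 and 110.23 TPM, also higher in animal 1. Ifi35, which binds leucine-zipper partners and is known as a signal of damage outside the cell, had 10.30 and 11.70 TPM. Ifi44, a cytoplasmic GTP-binding protein, had 1.71 and 2.11 TPM.

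The RNA sensors recognise viral RNA in the cytoplasm. Dhx58 (LGP2), which modulates the others, was the highest, with 15.23 TPM in animal 1 and 10.09 in animal 2. Ddx58 (RIG-I), the sensor of short RNA with a 5′ triphosphate, had 9.25 and 7.45 TPM, and Ifih1 (MDA5), the sensor of long double-stranded RNA, 2.81 and 3.01 TPM. The order of the 3 was the same in both animals, and Ifih1 lay 1.51 ± 0.29 below Ddx58 on the log2 scale (SD, n = 2).

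Of the transcription factors, Stat2 had 13.62 TPM in animal 1 and 9.96 in animal 2, and its partner Irf9 5.21 and 6.05 TPM. Irf1, which binds related elements, had 7.94 and 6.40 TPM. Irf7, the factor that drives interferon alpha genes and is itself induced, had 1.82 and 2.39 TPM, the lowest of the 4 in both animals, and its printed TPM lay below its own deposited interval in both libraries. Stat2 was lower in animal 2, whereas the deposited intervals of Irf9 overlap between the animals.

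Effectors that act on RNA or on infected cells formed the largest group, and 7 of the 12 were detected. Xaf1, a cofactor of cell death, had 6.19 and 5.04 TPM. Rsad2 (viperin), an enzyme that makes a chain-terminating nucleotide, had 3.55 and 3.71 TPM. Oasl2 had 2.87 and 2.98 TPM and Isg20, an exonuclease, 2.49 and 1.62 TPM. Ifit3 and Ifit1, of a family that binds RNA with a foreign 5′ end, had 1.47 and 1.38 TPM in animal 1 and 1.62 and 1.55 in animal 2, a log2 ratio of 0.08 ± 0.02 (SD, n = 2). The deposited intervals of the pair overlap in each library, and 61.8% of the 31-base stretches of Ifit3 are shared with Ifit3b. Ifit2 of the same cluster on chromosome 19 (GRCm38, 34550694 to 34650009) had 0.88 and 0.83 TPM, and Zbp1, a sensor of left-handed nucleic acid that can start necroptosis, 1.35 and 1.07 TPM.

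In the 2′-5′ oligoadenylate synthetase family, whose active enzymes activate RNase L, all genes of the set but Oasl2 stayed under 1 TPM in both animals. Oas1a had 0.54 and 0.72 TPM, Oasl1 0.25 and 0.36, Oas2 0.13 and 0.33, and Oas3 0.09 and 0.15. Across the whole family of 12 annotated genes, 1 was detected, Oasl2. It exceeded its neighbour Oasl1, which lacks synthetase activity and restrains the translation of Irf7, by 3.29 ± 0.33 on the log2 scale of TPM (SD, n = 2). The printed TPM of Oasl1 lay below its own interval in both libraries, and the deposited posterior means, 0.54 and 0.64 TPM for Oasl1 and 3.11 and 3.39 for Oasl2, give a smaller gap. Oas1a shares 68.8% of its 31-base stretches with other genes, chiefly Oas1g, and its level is uncertain for that reason.

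Among the GTPases, Igtp (Irgm3) had 5.06 and 4.22 TPM and Gbp2, which coats vacuoles of pathogens, 4.24 and 4.97 TPM. Igtp overlaps Irgm2 on chromosome 11 (GRCm38, 58199556 to 58207591), and 15.9% of its 31-base stretches are shared, so reads of the pair can be divided between them. Gbp3 had 2.78 and 2.83 TPM. Mx2, a gene of the dynamin-like kind that is annotated as a polymorphic pseudogene, had 2.29 and 3.55 TPM. Mx1, its neighbour on chromosome 16, had 1.03 and 0.65 TPM. The ratio of Mx2 to Mx1 was thus 2.22-fold in animal 1 and 5.46-fold in animal 2. The printed TPM of Mx1 lay below its own interval in animal 2, and its expected counts, 35 and 40, point the other way. The posterior means were 1.33 and 1.18 TPM for Mx1 and 2.61 and 3.71 for Mx2, which brings the ratios of the animals closer. Iigp1, a GTPase directed at parasite vacuoles, had 0.55 and 0.60 TPM.

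The ubiquitin-like system and the chemokine had low levels, with Cxcl10 near the limit of measurement. Isg15, a ubiquitin-like modifier and among the genes most strongly induced by interferon, had 0.63 TPM on 16 expected counts in animal 1 and 1.46 TPM on 34 in animal 2. Usp18, the protease that removes Isg15 and blocks the receptor, had 0.75 and 0.69 TPM on 43 and 41 expected counts. Cxcl10, which attracts T cells, had 0.35 and 0.13 TPM on 8 and 3 expected counts, and 3 counts is the limit that a count of 0 would allow.

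The animals were compared on counts scaled between the libraries, as the log2 ratio of animal 2 over animal 1. For the 34 members that averaged 10 or more expected counts, the median was 0.10, against -0.01 for all 17024 such genes, and 21 of the 34 were higher in animal 2 (61.8%), against 48.7% of all such genes. Of the 34, 27 lay within 1.5-fold (79.4%), against 80.3% of all such genes. None of the 26 members that averaged 50 or more counts was at least 2-fold apart with deposited intervals that do not overlap, against 3.46% of 13570 genes. The deposited intervals alone did not overlap for 3 of 26 (11.5%), against 33.1% of the 13570. The members tested were shallower than the rest, with a median of the mean count of 337.5 against 667.8. The intervals cover the quantification of each library and not the spread between animals.

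**Figure D2:**
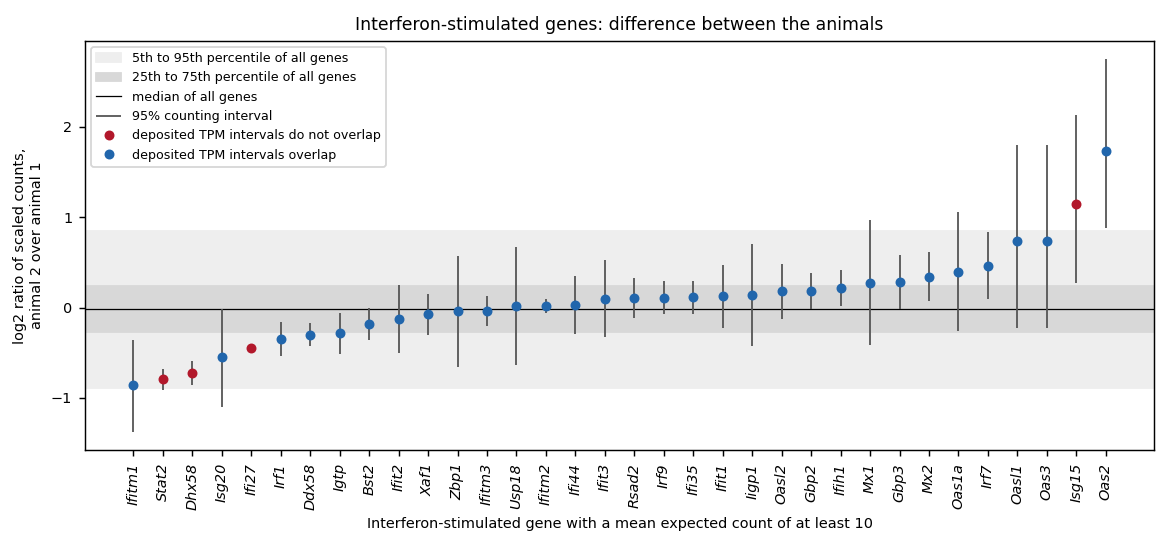
Log2 ratio of scaled counts, animal 2 over animal 1, for the 34 interferon-stimulated genes that averaged 10 or more expected counts, with a 95% interval from counting error alone; the grey bands hold the central parts of all genes, from -0.89 to 0.85 for the wider one. Red points have deposited intervals that do not overlap, among them Isg15, whose mean count was under 50, and most of the points sit inside the bands.

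The 3 genes with separate intervals were Ifi27, Dhx58 and Stat2, and all were higher in animal 1. Their log2 ratios were -0.45 for Ifi27, -0.72 for Dhx58 on 1255 and 718 expected counts, and -0.79 for Stat2 on 1670 and 910. Over all genes, 12.3% had separate intervals with the higher value in animal 1 and 20.7% in animal 2. Under 5 ways of scaling or quantifying the libraries, each of the 3 kept its sign. At low depth, Isg15 was 2.21-fold higher in animal 2 (95% counting interval 1.21 to 4.37) and Oas2, on 14 and 45 expected counts, 3.32-fold higher (1.84 to 6.72), but the deposited intervals of Oas2 overlap. At the other end, Ifitm1 had the lowest ratio among the 34, -0.85 on 100 and 52 expected counts, also with overlapping intervals. With 1 library per animal none of these ratios has a replicate check, and the smallest two-sided p that an exact sign-flip test over 2 animals allows is 0.5.

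In TPM, the 3 genes differed between the animals mainly in their protein-coding transcripts. The coding transcripts of Ifi27 summed to 215.89 TPM in animal 1 and 127.47 in animal 2, while its retained-intron transcripts, which keep part of an intron and code for no annotated protein, summed to 207.35 and 203.53 TPM. For Stat2 the coding transcripts had 9.33 and 5.24 TPM and the retained-intron transcripts 4.28 and 4.72. For Dhx58 the coding transcript had 13.41 and 8.16 TPM and the others 1.82 and 1.93. The non-coding sums were thus close between the animals in all 3, and the coding sums were not. In the second quantification the coding sums were 476.3 and 307.4 TPM for Ifi27, 17.0 and 8.88 for Stat2 and 25.3 and 14.5 for Dhx58. Its other transcripts had 333.3 and 315.8 TPM for Ifi27 and 4.34 and 3.99 for Dhx58, but 6.48 and 10.4 for Stat2. A lower coding share in animal 2 was common: it was found in 70.1% of the 4031 protein-coding genes with at least 1 TPM of coding and of other transcripts in both animals. Of the 371 among them that were higher in animal 1 with separate intervals, it was found in 62.5%. Over the 4031 genes the median log2 ratio of TPM, animal 2 over animal 1, was 0.04 for coding and 0.35 for other transcripts. Over the 371 the medians were -0.37 and -0.20. The non-coding ratios of Ifi27, Dhx58 and Stat2 were -0.03, 0.08 and 0.14, under the median of the 4031 genes and above that of the 371. The set had 7 genes with such levels of both kinds, and the coding share was lower in animal 2 in 4 of them, Ifi27, Stat2, Dhx58 and Ifi35, and higher in Ddx58, Rsad2 and Oasl2. Its part in the difference of these 3 genes was not tested.

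Ifi27 had the highest level of non-coding transcripts in the set in TPM. Its non-coding share was the highest of the set in animal 2 but not in animal 1. By the second quantification Mx2 had a higher non-coding share in both animals. Retained-intron transcripts held 49.0% of the level of Ifi27 in animal 1 and 61.5% in animal 2, chiefly a transcript of 3 exons with 166.31 and 143.50 TPM. Over the 24 detected protein-coding members the median coding share was 93.4% and 89.98%, and over all 11546 such genes 94.3% and 91.9%. More than 10% in retained introns was found for 4 members in animal 1 and 6 in animal 2, and for 20.1% and 26.3% of all genes. In Oasl2 the leading transcript had 5 exons and was annotated for nonsense-mediated decay, with 47.7% and 43.0% of the level, and its coding transcripts summed to 1.10 and 1.59 TPM. The second quantification gave transcripts of that class 23.7% and 17.9%. Total RNA keeps unspliced and partly spliced molecules, and short reads assign transcripts of 1 gene with an error that the gene level does not show.

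**Figure D3:**
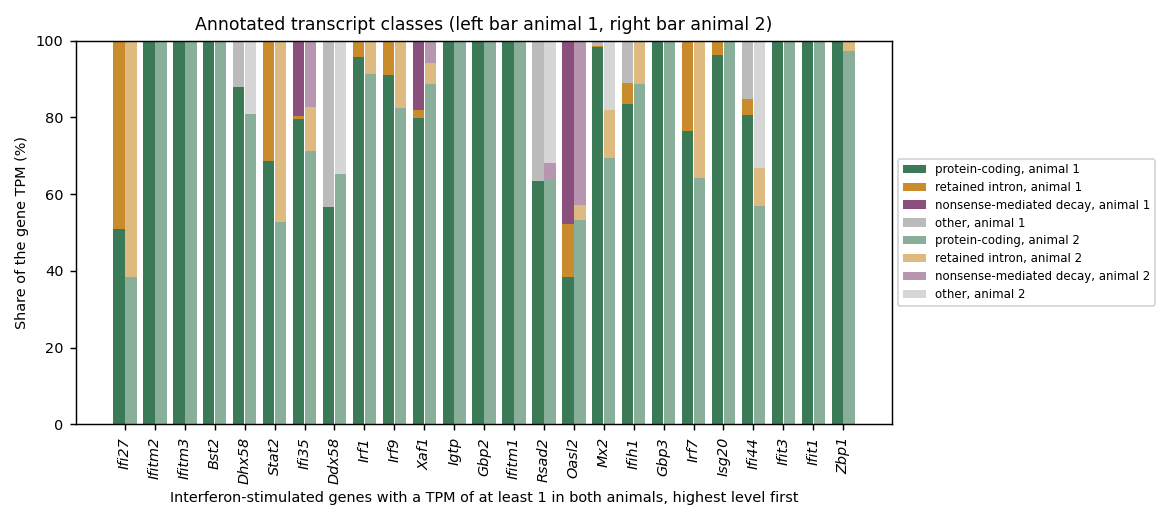
Share of the gene's TPM (percent) in each class of annotated transcript for the 25 interferon-stimulated genes with at least 1 TPM in both animals, with animal 1 as the left, darker bar and animal 2 as the right, lighter bar. Ifi27 and Stat2 have a large retained-intron part that takes a larger share in animal 2, and Oasl2 a large part annotated for nonsense-mediated decay.

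The second quantification gave higher TPM for every member but Cxcl10. Among the 25 detected members its TPM was a median of 1.80 times the first in animal 1 and 1.77 times in animal 2, close to the medians of 1.88 and 1.78 over all detected genes. Ifi27 had 809.6 and 623.1 TPM there and Ifitm2 194.1 and 184.1, so the order of the leading pair held. The spread around the median was 1.29 to 2.68 in animal 1 and 1.17 to 2.75 in animal 2. The highest values in both ranges were those of Mx2 in animal 1 and Gbp3 in animal 2.

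**Figure D4:**
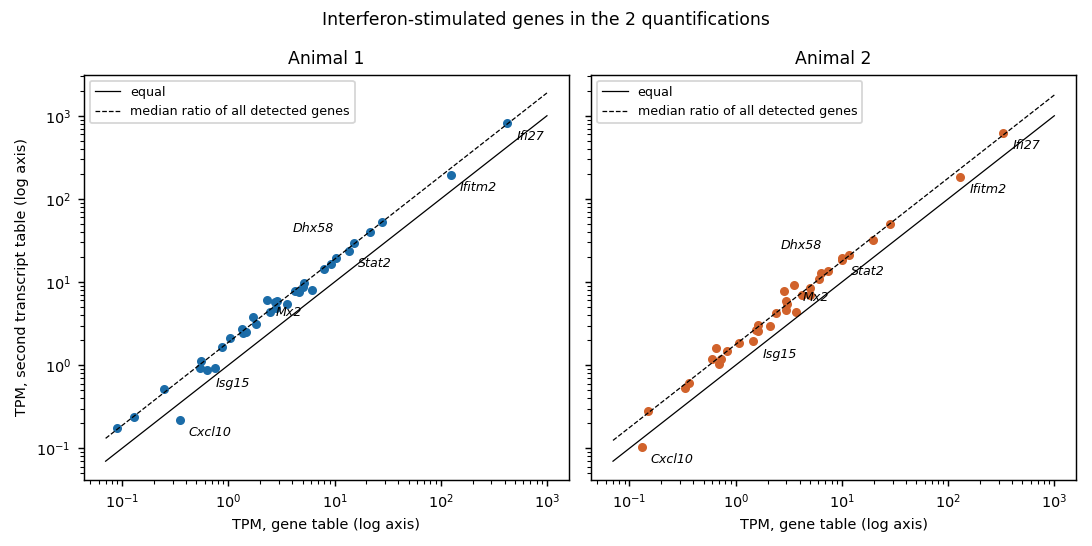
TPM in the second transcript table summed per gene (vertical log axis) against TPM in the gene table (horizontal log axis) for the 35 interferon-stimulated genes, animal 1 on the left and animal 2 on the right; the solid line marks equal values and the dashed line the median ratio over all detected genes. Nearly all points lie along the dashed line, and Cxcl10 lies below the line of equal values in both animals.

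The rest of the pathway was read from lists of other genes. Among the ligands, 0 of 12 interferon genes were detected, and 9 of them, Ifnb1 and Ifng included, had 0 counts in both animals. With 0 counts, a level of up to 3 counts cannot be told from none, which is 0.0839 CPM in animal 1 and 0.0854 CPM in animal 2. Ifnl2, Ifnl3 and Ifna2 had 4, 3 and 1 counts in animal 1 and 0 in animal 2, and Ifnl2 and Ifnl3 are near-identical copies. In contrast, 10 of 11 receptor and kinase genes were detected, Il10rb the highest at 68.96 and 80.76 TPM, then Jak1 at 36.23 and 42.46 and Ifnar2 at 29.63 and 30.79. The exception was Ifnlr1, the receptor chain of lambda interferons, at 0.03 TPM in both. Of the 10 with enough counts, 5 had separate intervals and were higher in animal 2, against 20.7% of all genes with such counts, and the median log2 ratio of the 10 was 0.15.

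Upstream of the interferons, 10 of 13 sensing genes were detected, led by Irf3, the factor that switches on Ifnb1, with 26.54 and 39.66 TPM. Tlr7, Tlr9 and Cgas, sensors of nucleic acid in endosomes and the cytoplasm, stayed under 1 TPM. All 9 genes of the restraint list, which limit signalling or clear nucleic acid, were detected, with Irf2 at 12.88 and 16.33 TPM and Socs1, the feedback inhibitor of the kinases, at 1.08 and 1.11. Of 28 further interferon-induced genes outside the set, 20 were detected, 14 were higher in each animal, and the median log2 ratio was 0.02. Trim25, the ubiquitin ligase that activates RIG-I, had 40.49 and 55.71 TPM, Lgals3bp 27.49 and 27.95, and Psmb8, a subunit of the immunoproteasome, 8.05 and 10.93. None of the genes of these lists that averaged 50 or more counts was at least 2-fold apart with separate intervals.

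Cell type markers were set beside these values. The glands carried the markers of their tissue: all 6 cortex genes and all 6 medulla genes were detected, with summed levels of 15553 and 20001 TPM for the cortex and 1803 and 1522 for the medulla. All 7 macrophage genes were detected, with 102.6 TPM in animal 1 and 119.5 in animal 2. T and NK cell genes summed to 1.15 and 1.18 TPM with 0 of 7 detected, and conventional dendritic cell genes to 0.48 and 0.82 TPM with 0 of 4 detected. Of the 4 plasmacytoid dendritic cell genes 1 was detected, Tcf4, which other cell types also express, with 34.23 and 36.76 of the list's 34.64 and 36.87 TPM. Of the others, Siglech had 0.20 and 0.07 TPM, Klk1 0.21 and 0.04, and Ccr9 0 counts in both. Several lists were higher in animal 1, as Ifi27, Dhx58 and Stat2 were. All 6 medulla and all 4 fibroblast genes were higher there with separate intervals, against 12.3% of all genes averaging 50 or more counts. Separate intervals with the higher value in animal 2 were found for 4 of 6 cortex, 3 of 7 macrophage and 2 of 5 endothelial genes, against 20.7%. B and plasma cell genes summed to 32.7 and 2.70 TPM with Igkc and Jchain at least 2-fold apart. Neutrophil genes summed to 1.31 and 0.13 TPM with Ly6g at 0 in both, and none of them averaged 10 counts. The 4 adipocyte genes summed to 2212 and 1185 TPM, with Ucp1 at least 2-fold apart, and the 5 striated muscle genes to 154.3 and 0.340 TPM, all 5 at least 2-fold apart. Endothelial genes summed to 125.7 and 137.6 TPM and fibroblast genes to 96.8 and 83.6. Their part in the differences of the interferon-stimulated genes was not tested.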

How the data were processed

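Total RNA of 2 adrenal glands was sequenced, 1 library each, after removal of ribosomal RNA, with spike-ins, by a kit that keeps the strand, per the labels' protocols. Per the file headers, the deposited gene tables hold expected counts (not whole) and TPM, with a posterior mean TPM. The authors' gene table also gives the signal bounds of an interval of TPM; its confidence level was not given in the sources used here. Transcript tables give, per the file headers, TPM and the percent of the gene's TPM in each transcript. A second transcript table deposited by the authors holds estimated counts and TPM. The deposited description names mm10 and GENCODE M21, and the aligner and counter were not given in the sources used here.

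Expected counts summed to 35769717 and 35135703 in animals 1 and 2. After rounding to whole numbers they were scaled by TMM (edgeR 4.0.16, R 4.3.3), and 0.5 was added before log2 ratios. Counting intervals are exact 95% binomial intervals. They and the limit of 3 counts cover counting error only. The 2-fold rule was tested on simulated counts with counting error only, larger changes, and counting intervals in place of the deposited ones. It was not tested with a spread between animals. Alternatives were DESeq2 1.42.0 size factors, spike-in totals, TPM ratios, other filters and the second table. Reads of both parental alleles count to 1 gene. Shared 31-base stretches were counted over GENCODE M21 transcripts on GRCm38.

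All members are named; from each other list up to 4 genes with the highest level, and those 2-fold apart, were eligible. Other genes named as neighbours, relatives or low markers were chosen after their values were seen, as were the coding and other transcript sums. Members and lists were chosen with earlier results of these data known.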

Additional observations from a re-analysis of the deposited data

How the results depend on the processing

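The summed level of 659.6 TPM moved to 1184 TPM in the second transcript table and to 2179 TPM when TPM was rescaled over nuclear protein-coding genes, which leaves out Mx2. The posterior mean TPM gave 656. With 1 animal left out at a time the sum ranged from 611 to 709 and the number of genes at 1 TPM from 26 to 26. Under the other thresholds and tables that number ranged from 26 to 34. Spike-in scaling raised the median log2 ratio from 0.10 to 0.32, while that of all genes rose to 0.21, a shift of 0.22, and 26 members were then higher in animal 2. The other 6 settings gave 0.03 to 0.10. With no filter on low counts, 1 gene, Isg15, was at least 2-fold apart, against 3.02% of all genes; the other settings gave 0. Without the filter 4 genes had separate intervals, against 18.5% of all genes, where the filter gave 3 and 33.1%. Of the 34 genes, 25 kept their sign under all 5 scalings, 8 lower and 17 higher in animal 2. The second table moved the level of 33 of 35 genes and 3 of 11 ratios between genes by more than the spread between the animals.

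Ratios between the animals could not be recomputed with 1 left out. No paired analysis was possible because there was 1 group only. Depth limits the 9 genes with mean counts under 50, among them Cxcl10, Isg15, Oas2, Oas3 and Oasl1.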
